A study of Mus musculus with 12 samples.

Results

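The genes described here are 10 nuclear genes of mitochondrial protein folding and quality control, of 47937 genes counted. They were taken by name: Hspd1, Hspe1, Hspa9, Dnaja3 and Trap1 encode chaperones, and Lonp1, Clpp, Clpx, Yme1l1 and Afg3l2 encode proteases or their subunits. RNA was sequenced from bone marrow-derived macrophages of C57BL/6 mice grown in CSF-1, in 4 groups of 3 libraries. The groups were resting macrophages (M0), macrophages given 50 ng/ml IFNγ and 20 ng/ml LPS for 18 h (IFNγ + LPS), resting macrophages given 50 µM T863, an inhibitor of the triglyceride-forming enzyme DGAT1, for 18 h (M0 + DGAT1i), and macrophages given IFNγ, LPS and T863 for 18 h (IFNγ + LPS + DGAT1i). The label of 2 libraries of M0 + DGAT1i describes the inhibitor with another compound number, while their source label reads T863 as in the third library. The labels do not say whether replicates came from separate cultures or animals, so that p-values measure the spread between these libraries. In bulk RNA, fewer cells expressing a gene and less of its RNA per cell cannot be told apart.

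Most mitochondrial proteins are made in the cytosol and threaded into the matrix unfolded, where Hspa9, the mitochondrial Hsp70, pulls them in and folds them with its J-domain partner Dnaja3. The chaperonin barrel of Hspd1 (Hsp60), closed by its lid Hspe1 (Hsp10), folds a further set of matrix proteins, and Trap1 is the Hsp90 of mitochondria. Proteins that fail to fold are degraded by Lonp1 and by the peptidase Clpp with its unfoldase Clpx in the matrix, and at the inner membrane by the AAA proteases Yme1l1, which faces the intermembrane space, and Afg3l2, which faces the matrix. Loss of folding capacity in mitochondria is known to raise transcripts of several of these genes, a response named the mitochondrial unfolded protein response.

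Hspd1 and Hspe1 lie head to head on chromosome 1, Hspd1 on the minus strand (chr1:55077835-55088243) and Hspe1 on the plus strand (chr1:55088132-55091307), in GENCODE release M21 on GRCm38. Their annotated start sites are 111 bases apart and their first exons share 112 bases on opposite strands. Promoters of 300 bases (250 before and 50 after the start) from RefSeq on GRCm38.p6 were at hand for 8 of the 10 members, with 2 starts for Hspd1. The windows of Hspd1 and Hspe1 are shown because both genes lie in one such region and their levels moved apart with IFNγ + LPS, and those of Dnaja3 and Yme1l1 because the first fell and the second did not with DGAT1i in IFNγ + LPS. They are written 5′ to 3′ on the strand of the gene, and capitals mark matches, on either strand, to the motifs searched, none of which overlapped another here.
Hspd1, chr1:55088194-55088493, minus strand: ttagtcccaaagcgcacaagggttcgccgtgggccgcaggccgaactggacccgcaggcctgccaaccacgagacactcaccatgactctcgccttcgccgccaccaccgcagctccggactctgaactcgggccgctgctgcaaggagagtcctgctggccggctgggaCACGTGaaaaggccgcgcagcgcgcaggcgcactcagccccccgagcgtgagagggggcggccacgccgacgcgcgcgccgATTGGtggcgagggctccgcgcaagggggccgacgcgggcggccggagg
Hspe1, chr1:55087898-55088197, plus strand: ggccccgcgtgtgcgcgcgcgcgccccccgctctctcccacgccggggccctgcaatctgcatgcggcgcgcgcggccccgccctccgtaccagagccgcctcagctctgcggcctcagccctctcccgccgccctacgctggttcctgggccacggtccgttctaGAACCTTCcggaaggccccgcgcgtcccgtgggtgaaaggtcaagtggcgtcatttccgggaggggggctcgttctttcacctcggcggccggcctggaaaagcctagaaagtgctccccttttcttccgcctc
Dnaja3, chr16:4683820-4684119, plus strand: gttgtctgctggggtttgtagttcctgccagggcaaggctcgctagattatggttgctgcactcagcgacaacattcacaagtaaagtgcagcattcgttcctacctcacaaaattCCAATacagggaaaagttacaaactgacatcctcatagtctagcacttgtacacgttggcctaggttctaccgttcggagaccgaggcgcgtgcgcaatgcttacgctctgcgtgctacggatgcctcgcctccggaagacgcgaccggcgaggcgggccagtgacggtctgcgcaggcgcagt
Yme1l1, chr2:23156255-23156554, plus strand: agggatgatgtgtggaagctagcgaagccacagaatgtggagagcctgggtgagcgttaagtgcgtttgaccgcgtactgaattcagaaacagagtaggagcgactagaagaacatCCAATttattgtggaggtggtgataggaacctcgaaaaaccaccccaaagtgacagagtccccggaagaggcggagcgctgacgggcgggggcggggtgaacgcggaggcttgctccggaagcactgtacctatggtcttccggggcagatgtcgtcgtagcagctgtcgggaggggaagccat

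The motifs were the heat shock element core GAANNTTC, the C/EBP-ATF composite core TGATGNAA, the cAMP response element TGACGTCA, the E-box CACGTG, the NRF1 core CGCATGCG, the GAS motif TTCNNNGAA and the CCAAT box. The heat shock element core was matched in 2 of the 8 members with a promoter, Hspd1 and Hspe1, and this was a single site, chr1:55088064-55088071, in the window of Hspe1 (first base at -84 from its start) and in that of the second Hspd1 start (first base at -139). Of 32851 promoters of that length, 7.86% hold this motif. The composite core was matched in 0 of the 8 members and in 3.97% of all promoters. The cAMP response element was matched in Trap1 (1.79% of all promoters), the NRF1 core in Clpx (1.87%), the GAS motif in Clpp (8.30%), the E-box in Hspd1 and Lonp1 (7.15%), and the CCAAT box in Hspd1, Dnaja3, Clpx and Yme1l1 (37.4%). A match gives letters in these windows only.

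Libraries held 4996014 to 6621671 reads counted on genes, and values are given as CPM, the reads of a gene relative to the TMM-scaled size of its library, 1 CPM being worth 4.28 to 7.58 reads. All 10 members passed the filter on low counts that left 11760 genes, with between 42 and 2019 reads per library. All 8 macrophage markers had reads in every group and summed to 13104 to 14328 CPM in M0, 8310 to 8965 in IFNγ + LPS, 16023 to 18040 in M0 + DGAT1i and 7910 to 8877 in IFNγ + LPS + DGAT1i. The sum was higher with DGAT1i in M0 without overlap, Lyz2 going from 9620 to 13020 CPM and Cd68 from 1040 to 1330, while Adgre1 went from 1313 to 1162, Csf1r from 1258 to 1178 and Cd14 from 168 to 98.0. From M0 to IFNγ + LPS, Lyz2 went to 2951 CPM, Csf1r to 846, Cd68 to 630, Cd14 to 101 and Itgam from 159 to 129. In the other direction, Adgre1 went to 2702, Fcgr1 from 90.9 to 856 and Mertk from 71.2 to 458. Summed markers of the response to IFNγ and LPS were 44.6 to 48.9 CPM in M0, 24615 to 26372 in IFNγ + LPS, 32.9 to 35.7 in M0 + DGAT1i and 22531 to 23228 in IFNγ + LPS + DGAT1i. They were lower with DGAT1i in both settings without overlap. In M0 the sum was mostly Irf1 (42.1 and 30.4 CPM). In IFNγ + LPS, Gbp2 went from 10500 to 8234 CPM and Cxcl9 from 2580 to 1816 with DGAT1i, while Nos2 went from 4778 to 5619 and Acod1 was at 5264 and 5270. Il1b went from 77.3 to 23.8 CPM and Il6 from 14.9 to 6.76, while Irf1 was at 1983 and 1921 and Ciita at 93.1 and 92.1. The part of these sums in the results below was not tested. The 8 neutrophil precursor markers summed to 31.5 to 38.6 CPM in M0, 15.1 to 25.4 in IFNγ + LPS, 22.8 to 29.0 in M0 + DGAT1i and 62.9 to 80.9 in IFNγ + LPS + DGAT1i, and the part of this in the falls with DGAT1i below was not tested. From IFNγ + LPS to IFNγ + LPS + DGAT1i the mean level of S100a8 went from 9.12 to 34.5 CPM, S100a9 from 7.77 to 25.8, Ngp from 1.35 to 9.17, Ltf from 0.931 to 4.32, Camp from 0.585 to 0.717 and Mpo from 0 to 0.069, while Elane was at 0 in both groups and Ly6g was at 0 in all 4. The 4 dendritic markers summed to 0.133 to 0.834 CPM in M0, 5.61 to 7.15 in IFNγ + LPS, 0.263 to 0.567 in M0 + DGAT1i and 1.04 to 1.40 in IFNγ + LPS + DGAT1i. In IFNγ + LPS this sum was mostly Xcr1 (5.5 CPM, and 0.87 with DGAT1i). The part of these low levels in the results below was not tested. The 13 messenger RNAs encoded in mitochondria took 0.782% to 0.825% of reads in M0, 0.601% to 0.676% in IFNγ + LPS, 0.951% to 1.08% in M0 + DGAT1i and 0.655% to 0.693% in IFNγ + LPS + DGAT1i. These are shares of all reads counted, without TMM scaling. The TMM factors were 1.19 in M0 and 0.846 to 0.869 in IFNγ + LPS, so that the order of these groups depends on the scaling.

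Compared per kilobase of the principal transcript, the 3 members of the folding machinery Hspa9, Hspe1 and Hspd1 had the highest means in each group, and this held when all exons of a gene were taken as its length. In IFNγ + LPS + DGAT1i, on the principal transcript, Hspd1 (41.1 ± 6.06 CPM per kb) and Yme1l1 (39.5 ± 2.24) differed by less than the spread of the libraries, and Yme1l1 was the higher in replicate 2 (40.3 against 37.7). In M0 they were at 80.0 ± 2.99, 76.2 ± 2.78 and 67.4 ± 2.72 CPM per kb (mean ± SD, n = 3), a set whose order changed with the length used. In IFNγ + LPS, Hspa9 stood alone at the top on both lengths, at 120.3 ± 1.34 CPM per kb of principal transcript against 91.8 ± 9.76 for Hspe1 and 53.0 ± 1.36 for Hspd1. The other 7 members were between 10.6 (Clpx) and 29.2 (Trap1) CPM per kb in M0. Clpp, at 11.9 ± 2.19, was above Clpx, at 10.6 ± 1.08, on both lengths in M0, by less than the spread of the libraries. Clpp rests on 42 to 107 reads per library, the fewest among the members.

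**Figure D1:**
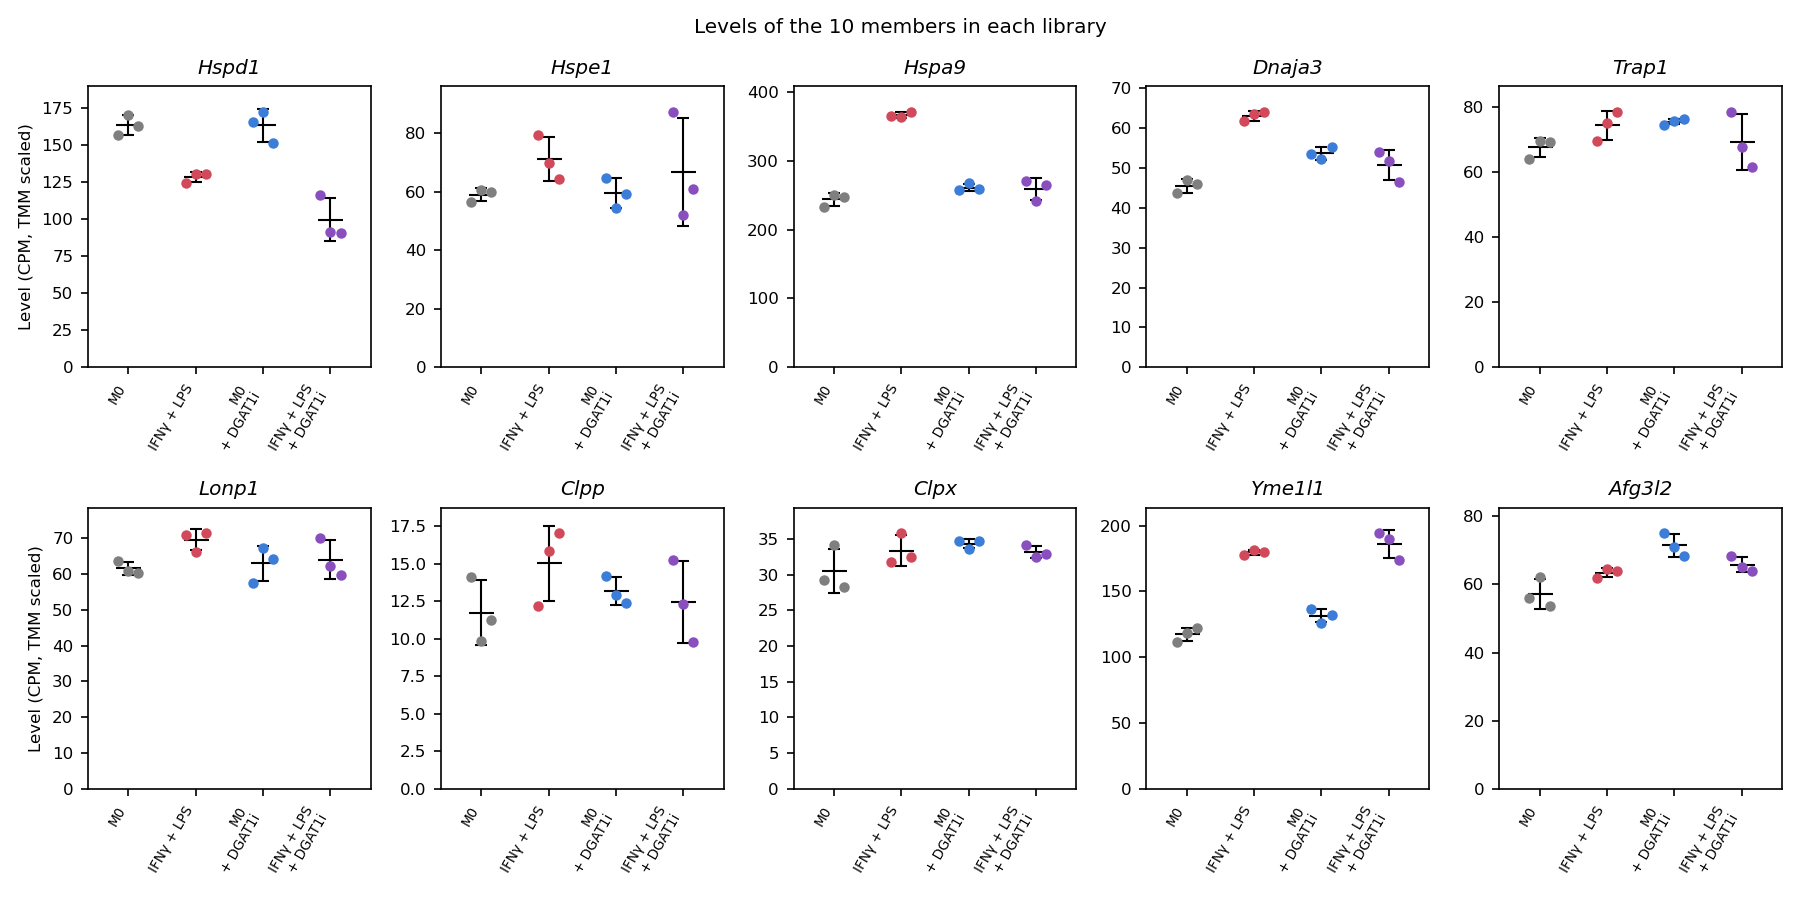
Level of each member in CPM (vertical axis, from 0) in the 12 libraries, by group. Points are libraries, horizontal bars the mean of 3 and error bars ± SD. Hspa9 stood at 363 to 371 CPM in IFNγ + LPS and at 233 to 270.5 CPM in all other groups, while Yme1l1 was high in both stimulated groups.

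With IFNγ + LPS against M0, 5 members rose (Hspa9, Dnaja3, Lonp1, Clpp and Yme1l1) and 1 fell (Hspd1), by edgeR's quasi-likelihood test at a Benjamini-Hochberg adjusted p under 0.05. Among all genes tested, 37.1% were called higher and 36.2% lower. The groups did not overlap for 7 of the 10 members and for 75.4% of all genes. The median log2 fold change was 0.22 over the members and 0.0064 over all genes. This comparison depends on the scaling: with library size only, the median of all genes moved to -0.46, and 2 members were then called higher and 5 lower, beside 19.9% of all genes higher and 59.5% lower. Changes by stimulation are therefore relative to the other genes of the same libraries.

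With DGAT1i in IFNγ + LPS, 3 members fell (Hspa9, Hspd1 and Dnaja3) and 0 rose, where 16.3% of all genes were called lower and 13.5% higher. The same 3 members were those whose groups did not overlap, against 39.7% of all genes, and the median was -0.11 over the members and -0.012 over all genes. With DGAT1i in M0, 3 members rose (Afg3l2, Dnaja3 and Yme1l1) and 0 fell, where 11.0% of all genes were called higher and 13.4% lower. There, 5 members did not overlap between the groups, against 37.8% of all genes, and all 5 were higher with DGAT1i, with a median of 0.16 over the members and 0.0037 over all genes. The difference between the DGAT1i responses, tested as an interaction, was called for Hspa9, Dnaja3 and Hspd1, each with the lower response in IFNγ + LPS, where 9.80% of all genes were called in that direction and 8.66% in the other (median -0.26 over the members and -0.014 over all genes). Hspa9, Hspd1 and Dnaja3 are also the genes that the study names from the mitochondrial unfolded protein response for these libraries, so their number is not independent evidence of a direction.

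With DGAT1i in both arms, IFNγ + LPS against M0 called 1 member higher (Yme1l1) and 1 lower (Hspd1), against 35.3% of all genes in each direction. The groups did not overlap for 3 members (Hspd1, Yme1l1 and, by less than a read, Afg3l2) and for 72.5% of all genes. The median was -0.06 over the members and -0.012 over all genes. With library size only the median of all genes was -0.43, and 0 members were called higher and 8 lower, beside 19.8% of all genes higher and 57.8% lower. The comparisons share groups with one another, so that their values are given side by side and their likeness is no result.

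**Figure D2:**
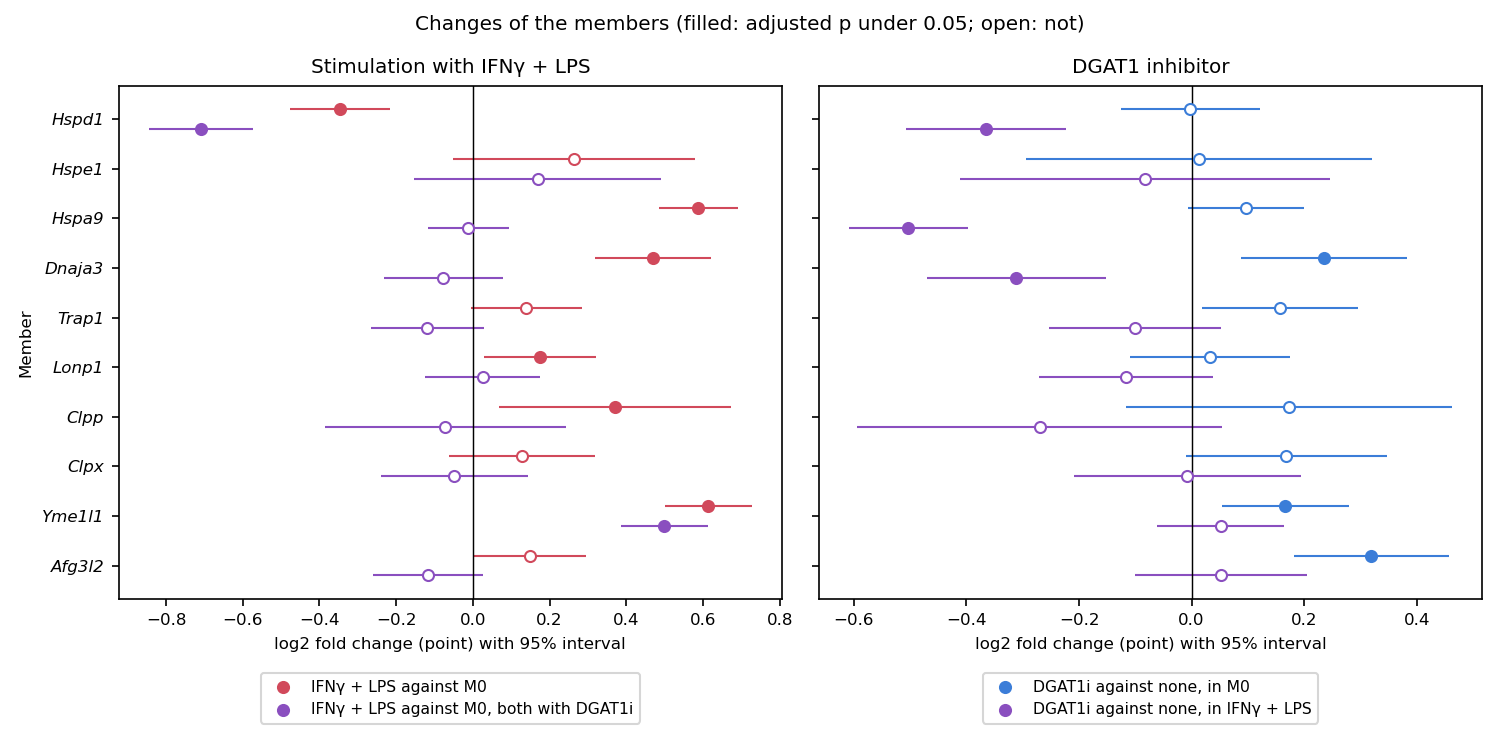
Log2 fold change of each member (horizontal axis) with its 95% interval, for IFNγ + LPS against M0 without and with DGAT1i (left) and for DGAT1i in M0 and in IFNγ + LPS (right). Filled points passed an adjusted p of 0.05 in edgeR. For Hspa9 and Dnaja3 the rise by stimulation of 0.59 and 0.47 stood at -0.012 and -0.077 in the presence of DGAT1i, and that of Yme1l1 at 0.61 and 0.50.

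The chaperonin subunit Hspd1 fell with stimulation and fell further when DGAT1i was added. It was at 157, 170.1 and 163 CPM in the 3 libraries of M0, at 125, 130.3 and 130.4 in IFNγ + LPS, at 166, 172 and 151 in M0 + DGAT1i, and at 117, 91.4 and 90.8 in IFNγ + LPS + DGAT1i. All libraries with IFNγ + LPS lay below all those without, and those of IFNγ + LPS + DGAT1i lay below those of IFNγ + LPS. The log2 fold change was -0.35 ± 0.07 (SE) for IFNγ + LPS against M0 (edgeR adjusted p = 1.05e-05) and -0.71 ± 0.07 with DGAT1i in both arms (adjusted p = 1.84e-12). DGAT1i changed Hspd1 by -0.37 ± 0.07 in IFNγ + LPS (edgeR adjusted p = 1.04e-04) and by -0.0026 in M0, with a 95% interval from -0.13 to 0.12. These responses differed by -0.36 ± 0.10 (edgeR adjusted p = 0.00499). Replicate 1 of IFNγ + LPS + DGAT1i stood apart from the other two libraries of its group in Hspd1, and without it the change by DGAT1i in IFNγ + LPS was -0.50. The pseudogene Hspd1-ps3, 99.0% identical to Hspd1 over 1722 bases, had 60 reads over all 12 libraries against 10542 for Hspd1, and reads that could come from either may have been lost or shared in the authors' counting.

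Hspe1, the lid of the chaperonin and the head-to-head neighbour of Hspd1, was not called lower in any comparison. It was at 56.5, 60.6 and 59.7 CPM in M0, at 79.2, 69.7 and 64.3 in IFNγ + LPS, at 64.7, 54.5 and 59.1 in M0 + DGAT1i, and at 87.3, 51.9 and 60.9 in IFNγ + LPS + DGAT1i. The libraries of IFNγ + LPS were above those of M0 without overlap, and the last group spanned the range of all others. The log2 fold change for IFNγ + LPS against M0 was 0.26 ± 0.16 and was not called (edgeR adjusted p = 0.165). It was called when only the 6 libraries compared were fitted (0.25, adjusted p = 0.00341 by edgeR and 0.0185 by DESeq2), with no filter (0.25, adjusted p = 0.00638 by edgeR) and with the replicate number as a block (0.26, adjusted p = 0.0284). It was also called by edgeR when replicate 1 (0.27, adjusted p = 0.00161 by edgeR) or replicate 2 (0.27, adjusted p = 0.0165) of IFNγ + LPS + DGAT1i, which is in neither arm, was left out of the common fit. DGAT1i in IFNγ + LPS gave -0.08 ± 0.17 (edgeR adjusted p = 0.771), and without replicate 1 of IFNγ + LPS + DGAT1i -0.33 (adjusted p = 0.0053) with a difference between the DGAT1i responses of -0.35 (adjusted p = 0.0366). With DGAT1i in both arms the change by stimulation was 0.17 (edgeR adjusted p = 0.384), and 0.33 (adjusted p = 0.0123) without replicate 2 of that group. The changes by stimulation were -0.21 without and -0.25 with DGAT1i when scaled by library size only, neither of them called. A BLAST search found a stretch of 208 bases at 99.0% identity in 1 other annotated gene, whose symbol did not match the count table.

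Set per length within each library, Hspd1 stood at 0.89 ± 0.012 (SD, n = 3) times Hspe1 in M0, 0.58 ± 0.074 in IFNγ + LPS, 0.88 ± 0.11 in M0 + DGAT1i and 0.49 ± 0.069 in IFNγ + LPS + DGAT1i. Such a ratio does not change with the scaling of libraries. The highest library with stimulation was at 0.65 and the lowest without it at 0.82. The kit named in the paper for these libraries keeps strand and the kit named in the labels is another one, and the strand setting of the counting is not given in the sources used here, so that reads of the 112 shared bases may have been dropped or given to either gene.

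Hspa9 (chromosome 18), the Hsp70 of the matrix, rose with stimulation only where DGAT1 was not inhibited. It was at 233, 250.4 and 248 CPM in M0, at 365, 363 and 371 in IFNγ + LPS, at 257, 267 and 258 in M0 + DGAT1i, and at 270.5, 241 and 265 in IFNγ + LPS + DGAT1i. The libraries of IFNγ + LPS stood above all 9 others, and the groups M0 + DGAT1i and IFNγ + LPS + DGAT1i overlapped. The log2 fold change was 0.59 ± 0.05 for IFNγ + LPS against M0 (edgeR adjusted p = 6.20e-15) and -0.012 with DGAT1i in both arms, with a 95% interval from -0.12 to 0.09. With library size only, these became 0.12 and -0.43, both called. DGAT1i changed Hspa9 by -0.50 ± 0.05 in IFNγ + LPS (edgeR adjusted p = 4.14e-11) and by 0.10 ± 0.05 in M0 (adjusted p = 0.190), and the difference of -0.60 ± 0.08 was the largest in size among the members (adjusted p = 1.33e-08). Leaving out any one library kept the change by DGAT1i in IFNγ + LPS between -0.54 and -0.46.

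Dnaja3 (chr16:4639989-4707695, plus strand), the J-domain co-chaperone of Hspa9, followed a like course with a rise by DGAT1i in M0 added. It was at 43.6, 47.0 and 45.9 CPM in M0, at 61.7, 63.4 and 64.1 in IFNγ + LPS, at 53.4, 52.1 and 55.3 in M0 + DGAT1i, and at 53.9, 51.7 and 46.5 in IFNγ + LPS + DGAT1i. The 3 libraries of IFNγ + LPS were the highest, and the lowest library of IFNγ + LPS + DGAT1i fell within the range of M0. The log2 fold change was 0.47 ± 0.08 for IFNγ + LPS against M0 (edgeR adjusted p = 3.13e-07; -2.5e-05 with library size only) and -0.077 ± 0.08 with DGAT1i in both arms (adjusted p = 0.391). DGAT1i changed Dnaja3 by -0.31 ± 0.08 in IFNγ + LPS (edgeR adjusted p = 0.00220) and by 0.24 ± 0.08 in M0 (adjusted p = 0.0153), a difference of -0.55 ± 0.11 (adjusted p = 1.77e-04). The rise in M0 was not called without replicate 1 of M0 (edgeR adjusted p = 0.0806) or replicate 3 of M0 + DGAT1i (adjusted p = 0.0689), with library size only (adjusted p = 0.0754), or by DESeq2 on 12 (adjusted p = 0.0869) or 6 libraries (adjusted p = 0.0741). Exons of Dnaja3 share 153 bases with Coro7 on the opposite strand, a gene with 526 to 748 reads per library. Per length, Hspa9 was 4.65 ± 0.030 times Dnaja3 in M0, 5.05 ± 0.082 in IFNγ + LPS, 4.23 ± 0.20 in M0 + DGAT1i and 4.45 ± 0.46 in IFNγ + LPS + DGAT1i.

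Hspa9 and Hspd1, the central chaperones of the matrix, moved apart with stimulation. Per length, Hspa9 was 1.19 ± 0.019 times Hspd1 in M0 (SD, n = 3), 2.27 ± 0.057 in IFNγ + LPS, 1.27 ± 0.073 in M0 + DGAT1i and 2.09 ± 0.24 in IFNγ + LPS + DGAT1i. Without stimulation the highest library was at 1.36, and with it the lowest was at 1.84, whatever the scaling of libraries. DGAT1i lowered both genes in IFNγ + LPS, and their ratio in the stimulated groups with and without it overlapped. In M0 the ratio was 1.17 to 1.21 without and 1.23 to 1.36 with DGAT1i, with no overlap.

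**Figure D3:**
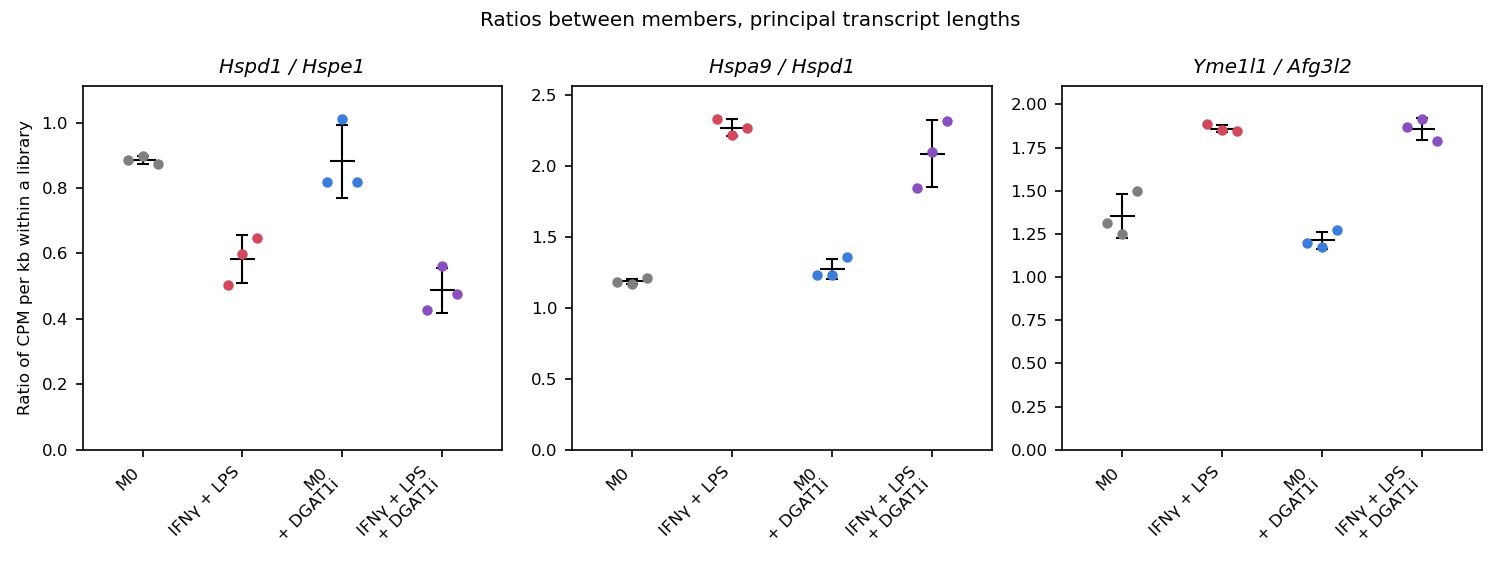
Ratio of the levels of 2 members per kilobase of principal transcript (vertical axis, from 0) within each of the 12 libraries, by group. Points are libraries, horizontal bars the mean of 3 and error bars ± SD. In the 3 ratios shown the libraries with IFNγ + LPS separate from those without. Hspd1 to Hspe1 fell from about 0.89 to 0.58 and Hspa9 to Hspd1 went from 1.19 to 2.27. The ratios of Hspa9 to Dnaja3 and of Clpx to Clpp, not shown, overlapped between libraries with and without stimulation.

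Trap1 (chr16:4039971-4077827, minus strand), the mitochondrial Hsp90, passed the test in none of the 5 comparisons with TMM scaling. It ranged from 64.2 to 69.5 CPM in M0, from 69.7 to 78.7 in IFNγ + LPS, from 74.7 to 76.3 in M0 + DGAT1i and from 61.6 to 78.6 in IFNγ + LPS + DGAT1i. The libraries of M0 lay below those of IFNγ + LPS and of M0 + DGAT1i without overlap. The log2 fold changes were 0.14 for IFNγ + LPS against M0 (95% interval -0.0060 to 0.28, edgeR adjusted p = 0.0861), 0.16 for DGAT1i in M0 (0.02 to 0.30, adjusted p = 0.100) and -0.10 for DGAT1i in IFNγ + LPS (-0.25 to 0.05, adjusted p = 0.361). Scaled by library size only, the first of these was -0.33 and called lower, as was the change by stimulation under DGAT1i (-0.54). The difference between the DGAT1i responses was -0.26 (edgeR adjusted p = 0.0801), and it was called without replicate 1 of IFNγ + LPS (-0.31, adjusted p = 0.0487) or replicate 1 of IFNγ + LPS + DGAT1i (-0.36, adjusted p = 0.0115). Without the first of these libraries the change by stimulation was called as well (0.19, edgeR adjusted p = 0.0380), and without the second so was the change by stimulation with DGAT1i in both arms (-0.22, adjusted p = 0.0164).

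Of the matrix proteases, Lonp1 and Clpp were called higher with stimulation by small margins, and none was called with DGAT1i. Lonp1 (chr17:56614297-56626887, minus strand) ranged from 60.2 to 63.5 CPM in M0, from 66.1 to 71.4 in IFNγ + LPS, from 57.5 to 67.1 in M0 + DGAT1i and from 59.5 to 70.0 in IFNγ + LPS + DGAT1i. Its rise of 0.17 ± 0.07 by IFNγ + LPS (edgeR adjusted p = 0.0329) was not called with RLE scaling (adjusted p = 0.0588), without a filter (adjusted p = 0.0934) or by DESeq2 (adjusted p = 0.119 and 0.116), and was -0.29 and called lower with library size only. It was not called by edgeR without replicate 2 (adjusted p = 0.0661) or 3 of M0 (adjusted p = 0.0775) or replicate 1 (adjusted p = 0.0765) or 3 of IFNγ + LPS (adjusted p = 0.0923). Under DGAT1i its levels with and without stimulation overlapped, and DGAT1i in IFNγ + LPS gave -0.12 with a 95% interval from -0.27 to 0.04.

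The peptidase Clpp (chr17:56990305-56996188, plus strand) ranged from 9.85 to 14.1 CPM in M0, from 12.2 to 17.0 in IFNγ + LPS, from 12.4 to 14.2 in M0 + DGAT1i and from 9.81 to 15.2 in IFNγ + LPS + DGAT1i, so that every pair of groups overlapped. Its rise of 0.37 ± 0.15 with IFNγ + LPS (edgeR adjusted p = 0.0279) was not called by DESeq2 (adjusted p = 0.0933 and 0.113) and was -0.10, not called, with library size only. Nor was it called by edgeR without replicate 2 (0.26, adjusted p = 0.159) or 3 of M0 (0.35, adjusted p = 0.0644) or replicate 2 (0.34, adjusted p = 0.0882) or 3 of IFNγ + LPS (0.28, adjusted p = 0.157). At this depth the 95% interval for DGAT1i in IFNγ + LPS ran from -0.59 to 0.05. Clpx (chr9:65294260-65330658, plus strand), which unfolds the substrates of Clpp, ranged from 28.3 to 35.8 CPM over the libraries without DGAT1i and from 32.5 to 34.7 CPM over those with it. It was called in none of the 5 comparisons with TMM scaling, but was called lower with library size only for IFNγ + LPS against M0 (-0.34, edgeR adjusted p = 0.00132) and for the same under DGAT1i (-0.47, adjusted p = 2.37e-05). DGAT1i in IFNγ + LPS gave -0.0079 with a 95% interval from -0.21 to 0.19. Per length, Clpx was 0.91 ± 0.24 times Clpp in M0 and 0.77 ± 0.12 in IFNγ + LPS, with overlap.

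Yme1l1 (chr2:23156369-23199260, plus strand), the inner membrane protease facing the intermembrane space, rose with stimulation both without and with DGAT1i. It was at 112, 118 and 122 CPM in M0, at 177, 182 and 179.6 in IFNγ + LPS, at 137, 126 and 132 in M0 + DGAT1i, and at 194, 189.6 and 174 in IFNγ + LPS + DGAT1i. The 6 libraries with stimulation lay above the 6 libraries without it, and the stimulated groups overlapped with each other. The log2 fold change was 0.61 ± 0.06 for IFNγ + LPS against M0 (edgeR adjusted p = 3.71e-14), the largest rise among the members, and 0.50 ± 0.06 with DGAT1i in both arms (adjusted p = 3.32e-11). With library size only these were 0.14 (edgeR adjusted p = 0.0200) and 0.08 (adjusted p = 0.204). DGAT1i in IFNγ + LPS gave 0.05 with a 95% interval from -0.06 to 0.16. In M0 it gave 0.17 ± 0.06 (edgeR adjusted p = 0.0268), a rise not called with RLE scaling (adjusted p = 0.0534), library size only (adjusted p = 0.167), no filter (adjusted p = 0.0704) or DESeq2 (adjusted p = 0.114 and 0.0846), nor by edgeR without replicate 1 (adjusted p = 0.151) or 2 of M0 (adjusted p = 0.0575) or replicate 1 (adjusted p = 0.128) or 3 of M0 + DGAT1i (adjusted p = 0.0648).

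Afg3l2 (chromosome 18), the inner membrane protease facing the matrix, had the largest response to DGAT1i in M0 of the members. It was at 55.9, 62.1 and 53.6 CPM in M0, at 61.9, 64.4 and 64.1 in IFNγ + LPS, at 75.1, 70.8 and 68.4 in M0 + DGAT1i, and at 68.3, 65.1 and 64.0 in IFNγ + LPS + DGAT1i. The libraries of M0 + DGAT1i were above all others, but only just. Their lowest was at 68.36 CPM and the highest of IFNγ + LPS + DGAT1i at 68.34, less than a read apart. M0 and IFNγ + LPS overlapped. DGAT1i gave a log2 fold change of 0.32 ± 0.07 in M0 (edgeR adjusted p = 3.29e-04) and of 0.05 ± 0.08 in IFNγ + LPS (95% interval -0.10 to 0.20). The rise in M0 was called under all 9 other settings and with each of the 12 libraries left out, at 0.26 to 0.38. The difference between the DGAT1i responses was -0.27 (edgeR adjusted p = 0.0668), and -0.33 without replicate 2 of M0 (adjusted p = 0.0265). Stimulation against M0 gave 0.15 (edgeR adjusted p = 0.0667), and -0.32, called lower, with library size only. Without replicate 2 of M0 it gave 0.22 (edgeR adjusted p = 0.0168). With DGAT1i in both arms it gave -0.12 (edgeR adjusted p = 0.150), and the stimulated libraries were lower without overlap, by less than a read. Scaled by library size only, the last value was -0.54 and called lower.

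Between the inner membrane proteases, Yme1l1 per length was 1.35 ± 0.13 times Afg3l2 in M0 and 1.21 ± 0.051 in M0 + DGAT1i (SD, n = 3). With stimulation it was 1.86 ± 0.022 times Afg3l2 without and 1.86 ± 0.064 times with DGAT1i. The lowest library with stimulation was at 1.79 and the highest without it at 1.50.

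The likeness of patterns was described by Pearson's r on log2 CPM over the 12 libraries, which share 4 groups and their scaling, and no test was made. Hspa9 and Dnaja3 were alike (r = 0.879), Dnaja3 being at rank 77 of 11759 genes for Hspa9 and Hspa9 at rank 30 for Dnaja3. Clpx and Afg3l2 were alike (r = 0.830), Afg3l2 being the second of all genes for Clpx. Hspd1 was most like Syncrip (0.977), Ttc27 (0.975) and Hspa4 (0.974), the last a cytosolic relative of the Hsp70s. Yme1l1 was most like Ptges (0.992), Crk (0.989) and Ube2d3 (0.988). The genes most like Hspa9 were Rdh13 (0.973), Mob1a (0.969) and Rgs1 (0.964), and those most like Dnaja3 were Ndufa10 (0.945), Hist2h2be (0.934) and Asns (0.932). For Afg3l2 they were Rabggtb (0.915), Gdf15 (0.907) and Glrx2 (0.885), and for Hspe1 Eif2b5 (0.875), Cd302 (0.859) and Gpat4 (0.847). Trap1 (Zfp551, A230072C01Rik and Senp6), Lonp1 (Fip1l1, Nol10 and Mien1), Clpp (Hif1an, Nlk and Thap6) and Clpx (Odr4, then Afg3l2 and Snx12) had no gene above 0.860.

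Around the members, the import machinery and further co-chaperones of the Hsp70 of mitochondria were measured with 17 genes. The shares of all genes called higher and lower, beside which the counts of the lists stand, were 37.1% and 36.2% for IFNγ + LPS against M0, 13.5% and 16.3% for DGAT1i in IFNγ + LPS, 11.0% and 13.4% for DGAT1i in M0. For stimulation under DGAT1i they were 35.3% in each direction. With IFNγ + LPS against M0, 4 rose and 5 fell, with a median log2 fold change of 0.09, and with library size only 1 was called higher and 11 lower, beside 19.9% and 59.5% of all genes. Those with the smallest adjusted p were Timm17a, a subunit of the inner membrane import channel (0.68 ± 0.09), and Grpel1, the nucleotide exchange factor of Hspa9 (0.41 ± 0.08), among those that rose, and Dnajc19, a J-protein of the import motor (-0.79 ± 0.13), and Dnajc28 (-1.71 ± 0.30) among those that fell. With library size only, Grpel1 was at -0.063. With DGAT1i in IFNγ + LPS, 2 fell, Timm17a (-0.39 ± 0.09, from 53.6 to 41.0 CPM, edgeR adjusted p = 0.00101) and Dnajc11 (-0.32 ± 0.10, adjusted p = 0.00787), and 0 rose. In M0, DGAT1i raised 1, Grpel2, a paralog of Grpel1 (0.31 ± 0.11, edgeR adjusted p = 0.0349; not called with library size only). When both arms had DGAT1i, 2 rose, Grpel1 (0.55) and Timm23 (0.34), and 7 fell, Timm17b (-1.29) and Dnajc19 (-0.84) having the smallest adjusted p and Dnajc28 the largest change (-1.38). By library size only, 0 were called higher and 13 lower, beside 19.8% and 57.8% of all genes.

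Of 16 other proteases and processing peptidases of mitochondria, 3 rose and 5 fell with IFNγ + LPS against M0, with a median of -0.07, beside 37.1% and 36.2% of all genes. Scaled by library size only, 1 was called higher and 13 lower, beside 19.9% and 59.5% of all genes. Htra2, a serine protease of the intermembrane space, went from 69.5 ± 1.33 to 130.8 ± 11.8 CPM (0.91 ± 0.07, edgeR adjusted p = 2.71e-18). Pmpcb, a subunit of the presequence processing peptidase, rose by 0.53 (0.059 and not called with library size only), and Pitrm1, which degrades cleaved presequences, fell by 0.49, as did Metap1d, a methionine aminopeptidase, by 0.70. With DGAT1i in IFNγ + LPS 2 fell, Pitrm1 (-0.30 ± 0.09, edgeR adjusted p = 0.00747) and the rhomboid protease Parl (-0.36 ± 0.11, adjusted p = 0.0112), and 0 rose, and Htra2 stood at 127 ± 4.94 CPM. In M0 DGAT1i raised Pitrm1 (0.20 ± 0.07, edgeR adjusted p = 0.0277; not called with library size only), the 1 gene called of the 16. Under DGAT1i, stimulation raised 2, Htra2 (0.85) and Pmpcb (0.56), and lowered 4. Of the genes lowered, Pitrm1 (-0.99) and Metap1d (-0.61) had the smallest adjusted p and Immp2l the largest change (-1.90). Immp2l was near the floor, at 1.66 CPM in M0 + DGAT1i and 0.44 in IFNγ + LPS + DGAT1i (lowest library at 0). It passed the filter on low counts only through the groups without stimulation. By library size only, 1 was called higher and 13 lower, beside 19.8% and 57.8% of all genes.

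Among 8 scaffolds and partners of the inner membrane proteases, 3 rose and 2 fell with IFNγ + LPS against M0, with a median of 0.08, beside 37.1% and 36.2% of all genes. Scaled by library size only, 1 was called higher and 5 lower, beside 19.9% and 59.5% of all genes. The smallest adjusted p were those of Prelid1, a lipid carrier of the intermembrane space known as a substrate of Yme1l1 (0.41, and -0.062 with library size only), and Maip1, a partner of the matrix-facing protease (0.81), for a rise, and of the prohibitin Phb (-0.52) and Bcs1l, an assembly factor of the respiratory chain (-0.44), for a fall. Bcs1l was called by a small margin (edgeR adjusted p = 0.0448), with overlap, at 7.80 to 10.1 CPM in M0 and 4.32 to 8.21 in IFNγ + LPS. Phb2, the partner of Phb in the ring that holds the matrix-facing protease, was the 1 gene called with DGAT1i in IFNγ + LPS, where it went from 94.6 ± 2.07 to 71.2 ± 8.94 CPM (-0.41 ± 0.07, edgeR adjusted p = 1.7e-05). In M0, DGAT1i raised Opa1, the fusion GTPase that Yme1l1 cleaves (0.17 ± 0.06, edgeR adjusted p = 0.0274; not called with RLE scaling or library size only), and lowered Prelid1 (-0.24 ± 0.06, adjusted p = 0.00106). Under DGAT1i stimulation raised 3, with Prelid1 (0.58) and Maip1 (0.54) first by adjusted p, and lowered 3, with Phb (-0.78) and Phb2 (-0.37) first. By library size only, 1 was called higher and 5 lower, beside 19.8% and 57.8% of all genes.

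Of 12 regulators of the mitochondrial and integrated stress responses, 11 were tested, Ppargc1a having 1 read in all libraries. With IFNγ + LPS against M0, 9 rose and 1 fell, with a median of 0.63, beside 37.1% and 36.2% of all genes. Scaled by library size only, 4 were called higher and 3 lower, beside 19.9% and 59.5% of all genes. Atf4, the central transcription factor of the integrated stress response, went from 117 ± 4.88 to 395 ± 4.87 CPM (1.75 ± 0.06) and its target Ddit3 rose by 1.84 ± 0.09, while Dele1, which carries a mitochondrial stress signal to the cytosol, fell by 0.58. With DGAT1i in IFNγ + LPS 4 fell, Atf4 (to 304 ± 18.8 CPM, -0.38 ± 0.05) and Ddit3 (-0.54 ± 0.09) being first. Of the heat shock factors, Hsf2 rose (0.52 ± 0.11, edgeR adjusted p = 1.35e-04) and Hsf1 was among the 4 that fell (-0.58 ± 0.13, adjusted p = 2.44e-04). In M0, DGAT1i raised 3, the smallest adjusted p being those of Atf5, a transcription factor known for the mitochondrial unfolded protein response, from 17.8 ± 2.12 to 43.5 ± 2.36 CPM (1.29 ± 0.10, edgeR adjusted p = 4.27e-16), and Atf4 (0.25 ± 0.06, adjusted p = 7.38e-04), and lowered Nrf1 (-0.28 ± 0.10, adjusted p = 0.0366). The remaining gene raised, Hsf2 (0.31), was not called with library size only. Tfam was called lower with RLE scaling (-0.33) and library size only (-0.36). In IFNγ + LPS, where DGAT1i left Atf5 at 30.8 ± 0.45 against 29.3 ± 2.77 CPM, it was not called. Where both arms had DGAT1i, 7 rose, Atf4 (1.12) and Ddit3 (1.25) having the smallest adjusted p and Cebpb the largest change (3.74), and 3 fell, with Dele1 (-0.68) and Atf5 (-0.50) first by adjusted p. By library size only, 5 were called higher and 4 lower, beside 19.8% and 57.8% of all genes.

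The relatives of these chaperones in the cytosol and the endoplasmic reticulum were measured with 22 genes, Hspa14 not being found under that symbol. With IFNγ + LPS against M0, 11 rose and 7 fell, with a median of 0.11, beside 37.1% and 36.2% of all genes. Scaled by library size only, 9 were called higher and 13 lower, beside 19.9% and 59.5% of all genes. Hspa8, the constitutive Hsp70 of the cytosol, went from 1242 ± 39.0 to 2852 ± 123 CPM (1.20 ± 0.05), and the inducible Hspa1a from 0.888 ± 0.25 to 32.4 ± 2.42 CPM (5.17 ± 0.21), whereas Hsp90b1 (-0.72 ± 0.05) and Hspa5 (-0.31 ± 0.05), of the endoplasmic reticulum, fell. With DGAT1i in IFNγ + LPS, 7 rose and 6 fell, the same counts as with RLE scaling and library size only. Hspa1a rose to 76.0 ± 7.92 CPM (1.23 ± 0.10, edgeR adjusted p = 4.54e-15) and its near-identical copy Hspa1b from 35.9 ± 0.61 to 88.8 ± 7.94 CPM (1.31 ± 0.10, adjusted p = 4.34e-14), reads of which the counting may have split between them. Hspa8 rose by 0.55 ± 0.05 (edgeR adjusted p = 3.71e-13) to 4179 ± 48.9 CPM in the comparison in which its mitochondrial relative Hspa9 fell by 0.50. The cytosolic chaperonin subunit Cct5 (-0.31 ± 0.06, edgeR adjusted p = 9.1e-05) and Hspa4 (-0.24 ± 0.06, adjusted p = 0.00108) fell. Of the 8 subunits of the cytosolic chaperonin measured, 4 fell (Cct2, Cct4, Cct5 and Cct8) and 4 were not called (Tcp1, -0.047, Cct6a, -0.079, Cct3, -0.10, and Cct7, -0.13). In M0, DGAT1i raised 0 of the 22 and lowered 6, with the smallest adjusted p for Hsp90aa1 (-0.30 ± 0.05, from 285 to 231 CPM) and Hspa5 (-0.27 ± 0.05, from 896 to 744 CPM). Under DGAT1i stimulation raised 10, with Hspa8 (1.95) and Hspa1a (6.97, from 0.584 CPM) first by adjusted p, and lowered 8, with Hsp90b1 (-0.59) and Cct5 (-0.53) first. By library size only, 9 were called higher and 13 lower, beside 19.8% and 57.8% of all genes. The difference between the responses of a mitochondrial gene and its relative was not tested.

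**Figure D4:**
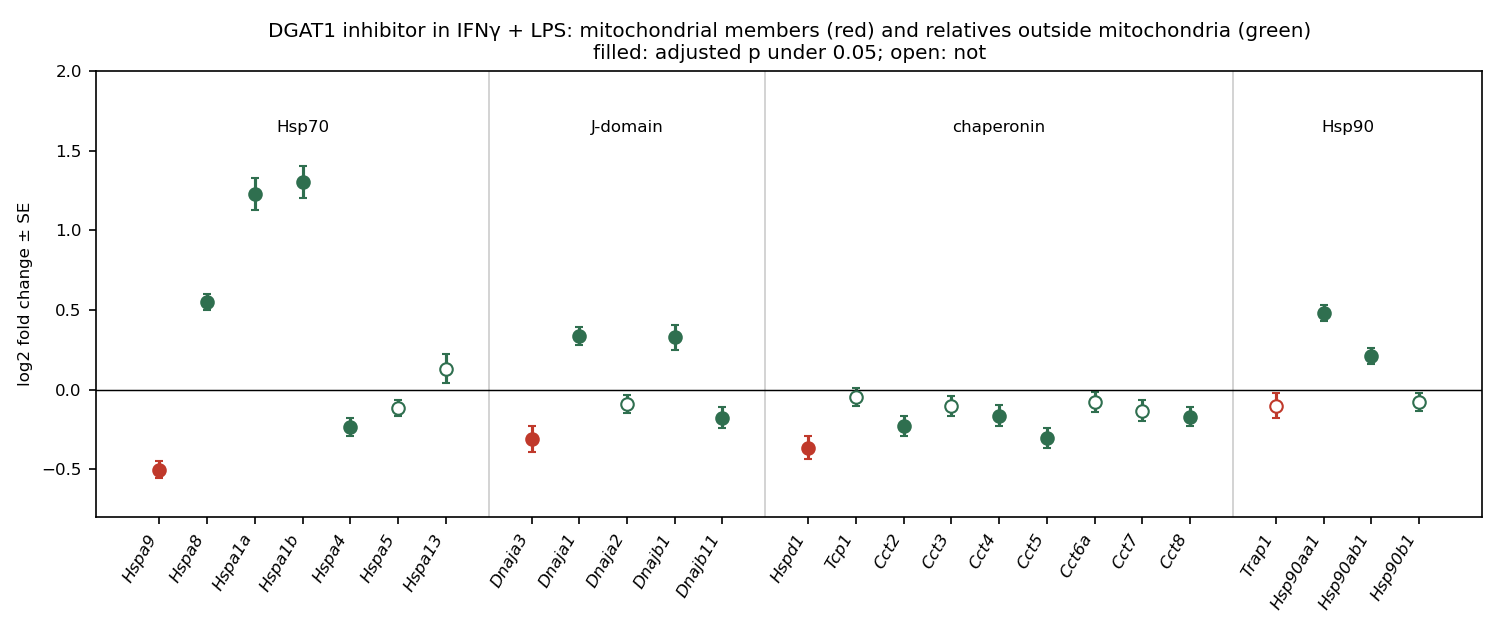
Log2 fold change ± SE (vertical axis) with DGAT1i in IFNγ + LPS, for members (red) and relatives outside mitochondria (green) of 4 chaperone families. Filled points passed an adjusted p of 0.05 in edgeR. In the Hsp70 family Hspa9 stood at -0.50 while Hspa8, Hspa1a and Hspa1b stood at 0.55, 1.23 and 1.31, Hspa4 at -0.24 and, not called, Hspa5 at -0.12 and Hspa13 at 0.13, and Hspd1 fell by 0.37, with the cytosolic chaperonin subunits between -0.31 (Cct5) and -0.047 (Tcp1).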

How the data were processed

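The 12 libraries of macrophage RNA fall into 4 groups of 3 by their labels. The authors deposited raw read counts per gene for the 12 libraries, without normalization. The submitters' processing notes name GRCm38 and DESeq2, while for the aligner, counting tool, strand setting and annotation release the entry is: not given in the sources used here. Of 47937 identifiers, 47224 matched GENCODE release M21 without their version, and symbols, positions and lengths were taken from it.

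The quasi-likelihood fit of edgeR 4.0.16 (R 4.3.3; glmQLFit, robust) had 1 coefficient for each group and used all libraries after TMM scaling, on the 11760 genes that filterByExpr kept. Adjusted p is the Benjamini-Hochberg value over all genes tested, SE is the log2 fold change over the square root of F, and 95% intervals are normal intervals from it. The common biological coefficient of variation was 0.0507. Depth was 4996014 to 6621671 reads per library, and replicates of a group differed by 1.98 to 4.23 times counting noise (chi-square per gene). The methods were tested on simulated data. Alternatives were RLE scaling, library size only, no filter, a mean CPM of at least 1, DESeq2 1.42.0, fits of the 6 libraries compared, the replicate number as a block, each library left out, and pseudogene reads added. Near-identical copies of the members were looked for with BLAST 2.17.0 (identity of at least 95%). Plots come from Python 3.11.15 and matplotlib 3.10.9.

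The members and the lists of other genes were chosen with earlier results of these data known. Genes named are the members, the 2 genes of each list with the smallest adjusted p per direction and comparison, and the 3 genes most like each member. Hspa8 with DGAT1i in IFNγ + LPS, Hspa5 and Hspa13 in the same comparison, Hsf1, the chaperonin subunits other than Cct5, Cebpb, Immp2l, the markers, the overlapping gene Coro7 and the further genes of the closing section were named after their values were seen.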

Additional observations from a re-analysis of the deposited data

Results flagged for a closer look

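The response to DGAT1i differed between IFNγ + LPS and M0, by the interaction term of the edgeR fit at an adjusted p under 0.05, for 3 members and 15 of the 74 genes of the lists tested (20.3%), where 18.5% of all genes were called. Values are the log2 response in IFNγ + LPS minus that in M0. Among the members, the difference was -0.36 for Hspd1, -0.60 for Hspa9 and -0.55 for Dnaja3, with a fall in 3 of 3 libraries of IFNγ + LPS + DGAT1i below every library of IFNγ + LPS in each case. Among the other mitochondrial genes it was -0.35 for Dnajc11, -0.49 for Timm17a, -0.50 for Pitrm1, -0.45 for Phb2 and -0.26 for Opa1, those of Dnajc11 and Opa1 not being called with RLE scaling or library size only. Among the stress regulators it was -0.67 for Hsf1, -0.59 for Ddit3, -1.22 for Atf5 and -0.63 for Atf4. Among the relatives in the cytosol it was 0.57 for Dnajb1, 0.75 for Hspa8, 0.79 for Hsp90aa1, 0.40 for Dnaja1, 1.80 for Hspa1a and -0.28 for Cct2. The value of Hspa1a rests on 0.888 and 0.584 CPM in the groups without stimulation, and that of its near-identical copy Hspa1b, with 0.930 and 1.09 CPM there, was 1.08 and not called (adjusted p = 0.130). In M0 alone DGAT1i gave -0.57 for Hspa1a and 0.22 for Hspa1b, neither called. With RLE scaling and with library size only, the difference was also called for Tfam (0.49 and 0.52) and Hsp90ab1 (0.20 and 0.23). That of Hspa5 (0.20) was called with library size only.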

How the results depend on the processing

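The fall of Hspa9, Hspd1 and Dnaja3 with DGAT1i in IFNγ + LPS, and their difference between the DGAT1i responses, were called under each alternative that was run, with 3 members called for both under the settings that kept all libraries. With each library left out in turn, 3 to 4 members were called for DGAT1i in IFNγ + LPS (24.4% to 29.9% of all genes), 3 to 5 for the difference (15.7% to 18.05%), 4 to 7 for IFNγ + LPS against M0 (69.1% to 73.3%), 2 to 3 for the same with DGAT1i in both arms (66.4% to 70.2%), and 1 to 3 for DGAT1i in M0 (19.0% to 25.2%). For DGAT1i in M0 the count was 1 with library size only and by DESeq2 on 12 or 6 libraries, the gene left being Afg3l2, beside 7.5%, 7.0% and 7.5% of all genes called higher and 17.8%, 10.9% and 10.1% lower. With library size only, 8 members were called, all lower, for IFNγ + LPS against M0 under DGAT1i, beside 57.8% of all genes lower and 19.8% higher. That scaling moved the median of all genes to -0.46 for IFNγ + LPS against M0 and -0.43 with DGAT1i in both arms, and it turned Hspe1 (-0.21), Dnaja3 (-2.5e-05), Trap1 (-0.33), Lonp1 (-0.29), Clpp (-0.10), Clpx (-0.34) and Afg3l2 (-0.32) in the first and Hspe1 (-0.25) and Lonp1 (-0.40) in the second. Of these, Trap1, Lonp1, Clpx and Afg3l2 in the first and Lonp1 in the second were called lower. Values near 0 that were not called also changed sign: for DGAT1i in M0, Hspe1 (-0.0065 with RLE scaling, -0.044 with library size only, -0.0071 by DESeq2 on 12 libraries), Lonp1 (-0.024 with library size only) and Hspd1 (0.0013 by edgeR on 6 libraries), for DGAT1i in IFNγ + LPS, Clpx (0.012 by edgeR and 0.012 by DESeq2 on 6 libraries), and for stimulation under DGAT1i, Lonp1 (-0.027 with no filter). With libraries left out, the ranges that crossed 0 were, for DGAT1i in M0, -0.044 to 0.049 (Hspd1), -0.052 to 0.070 (Hspe1) and -0.015 to 0.094 (Lonp1), for DGAT1i in IFNγ + LPS, -0.33 to 0.069 (Hspe1) and -0.044 to 0.045 (Clpx), for the difference, -0.35 to 0.057 (Hspe1), and for stimulation under DGAT1i, -0.077 to 0.33 (Hspe1), -0.042 to 0.038 (Hspa9), -0.042 to 0.074 (Lonp1) and -0.24 to 0.065 (Clpp). The replicate block called 7 members for IFNγ + LPS against M0, Hspe1 being added, and changed no other call of a member. Deviations from the group means of libraries with the same number correlated at -0.02 to 0.07 in 18 pairs, against -0.06 to 0.04 in 36 pairs with different numbers. Between IFNγ + LPS and IFNγ + LPS + DGAT1i, pairs with the same number were at 0.069, 0.039 and 0.036, and those with different numbers at -0.058 to 0.020. The numbers were not taken to pair libraries in the main fit, and these values do not decide whether they do. Clpp, with 42 to 107 reads per library, is limited most by depth.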
